A study of Mus musculus with 12 samples.

Results

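The 9 genes described here encode synemin (Synm) and the intermediate filament proteins found with it in neurons, glia and their progenitors: the neurofilament subunits Nefl, Nefm and Nefh, alpha-internexin (Ina), peripherin (Prph), vimentin (Vim), nestin (Nes) and glial fibrillary acidic protein (Gfap). They were taken by gene symbol from 19954 listed genes. Synm was chosen by its lower level in mutant retinas of these same libraries, so its genotype difference is a description with no test. The 8 partners were added as a family, and the question was whether they differ between the genotypes as Synm does.

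RNA was measured in 12 libraries of whole mouse retina of stage E15.5, each made from 12 pooled retinas of C57BL/6 embryos. Mutant retinas were Six3-Cre:Tbr2f/f, in which Cre expressed from Six3 sequences in the developing eye field removes floxed Tbr2, a T-box transcription factor listed as Eomes. The other genotype is labelled wild type, and the labels do not say whether those embryos carried the floxed allele or Cre. Each combination of genotype and sex had 3 libraries, numbered 4, 5 and 6. Because retinas were pooled, the errors below measure the spread between pools and not between single embryos.

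Intermediate filaments are ropes of coiled-coil proteins that give cells mechanical strength. Vimentin forms filaments on its own and is the main filament protein of retinal progenitors, where nestin joins it as a partner that does not assemble alone. Neurons that leave the cell cycle make alpha-internexin and then the light, medium and heavy neurofilament subunits, which set axon calibre in ganglion cells. Peripherin is best known from peripheral neurons, and Gfap from mature astrocytes and reactive Müller glia. Synemin is a large subunit that needs vimentin, desmin or another partner to enter a filament and ties it to actin-linked proteins and to protein kinase A.

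Library totals lay between 18514607 and 27072825 counts. Mutant male 6 had the lowest total and the fewest genes with a count, 16903 beside 17970 to 19242 in the other libraries. The targeted gene was lower in mutants, with Eomes at 61.7 ± 8.77 CPM (counts per 1000000 counts of the library; SD, n = 6) in wildtype and 19.1 ± 6.65 CPM (SD, n = 6) in mutant retinas, with no overlap. Libraries also differed within the groups. The mitochondrial transcript mt-Nd6 set 5 libraries apart, with 373 to 484 CPM in number 5 of the wildtype males, numbers 4 and 6 of the wildtype females and number 4 of both mutant groups. It had 9.70 to 48.4 CPM in the remaining 7. Summed lens markers ran from 5.19 to 2142 CPM and were highest in mutant female 5. Their median was 115 CPM in wildtype and 297 CPM in mutant libraries. All 13 tested lens markers had log2 differences, mutant against wildtype, above 0 (median 1.54), and none was called. Summed ganglion cell markers spanned 2641 to 2886 CPM in wildtype and 2632 to 2912 CPM in mutant libraries. Taken singly, 11 of the 13 ganglion cell markers had fitted log2 differences, mutant against wildtype, below 0 and 2 above. Their median was -0.04 and none was called, beside 7320 above and 8139 below over all tested genes. The muscle markers Myod1 and Ckm were at 0 in at least 6 libraries. The part of these differences in the results below was not tested except where values within the mt-Nd6 sets or without the lens-rich libraries are given.

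Per length of transcript, the 9 genes covered more than 3 orders of abundance in wildtype retina. FPKM values, which divide counts by gene length and library total, averaged 305 ± 17.3 for Vim, 233 ± 10.8 for Ina, 164 ± 12.1 for Nefm and 80.5 ± 5.63 for Nefl (SD, n = 6 each). Nes followed at 35.4 ± 2.76 FPKM and Synm at 9.33 ± 1.19 FPKM (SD, n = 6 each). Prph averaged 1.32 ± 0.361 FPKM, Nefh 0.577 ± 0.0998 FPKM and Gfap 0.221 ± 0.0868 FPKM (SD, n = 6 each). The embryonic retina thus held vimentin and nestin RNA beside internexin and the 2 smaller neurofilament subunits, with the heavy subunit and the glial gene near the lowest levels. In this order only the ranges of the neighbours Prph (0.733 to 1.69 FPKM) and Nefh (0.475 to 0.750 FPKM) overlapped. The order depends on the lengths used: with the exon lengths of GENCODE M21 in place of the deposited ones, an alternative added after seeing the data, Vim averaged 141 FPKM and stood below Ina at 233 FPKM, and Nefm averaged 104 FPKM.

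**Figure D1:**
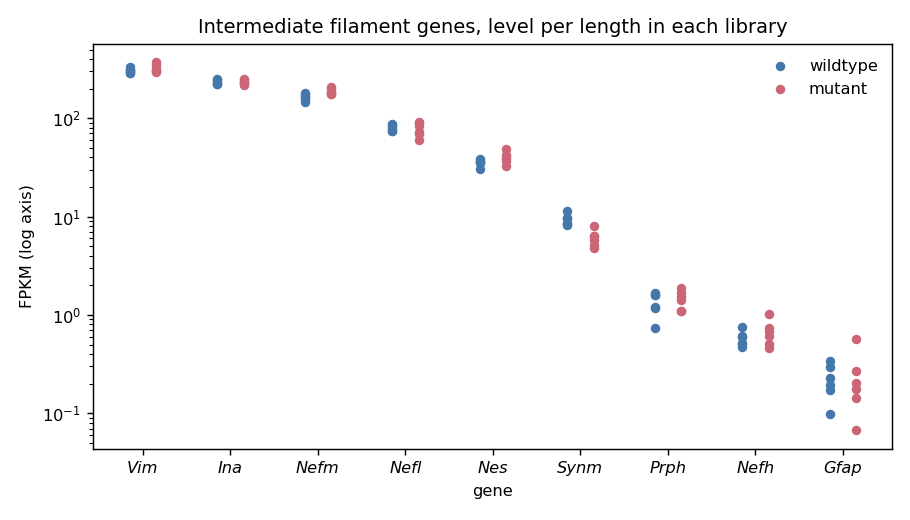
FPKM (log axis) of the 9 genes in each of the 12 libraries, wildtype in blue and mutant in red, 1 point per library. Vim, Ina, Nefm and Nefl lie near the top, Synm in the middle at 9.33 FPKM in wildtype, and Gfap at the bottom; Synm is the gene whose wildtype and mutant points separate.

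Synm (ENSMUSG00000030554, mm10 chromosome 7, 67730161 to 67759742, minus strand) stood at 75.6, 89.9 and 75.8 CPM in wildtype males 4, 5 and 6, and at 45.1, 49.4 and 63.3 CPM in the mutant males. Wildtype females were at 66.6, 64.9 and 67.4 CPM and mutant females at 37.7, 49.5 and 40.4 CPM. Every mutant library lay below every wildtype library, and the nearest were mutant male 6 at 63.3 and wildtype female 5 at 64.9 CPM. These values rest on 833 to 2302 counts per library. The genotype means were 73.4 ± 9.35 and 47.6 ± 9.04 CPM (SD, n = 6 each). Fewer cells that express Synm and less Synm RNA per cell cannot be told apart in whole retina.

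The fitted log2 difference of Synm, mutant against wildtype, was -0.63 (SE 0.09) over both sexes, -0.61 (SE 0.16) in males and -0.64 (SE 0.11) in females. The authors' deposited table gives Synm smaller log2 fold changes of -0.44 for both sexes, -0.40 for males and -0.46 for females. DESeq2 run here on the same counts gave -0.63 over both sexes. The deposited value of Eomes for both sexes was smaller too, at -0.81 beside -1.76 in the fit here. Why the deposited values are smaller was not tested. Over all tested genes, 0.129% had all 6 mutant libraries below all 6 wildtype ones and 0.239% had mutants below wildtype within each sex; Synm was picked from such genes, so nothing is read from its place among them. The difference was -0.90 among the 5 libraries high in mt-Nd6 and -0.45 among the other 7, and without the 3 libraries highest in the lens gene Cryaa it was -0.63.

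The sex and genotype-by-sex terms are separate from the contrast that picked Synm. Synm was lower in females than in males by a log2 difference of -0.27 (SE 0.09, 95% interval -0.47 to -0.07), which did not pass adjustment over all genes (edgeR quasi-likelihood, adjusted p = 0.879), against a background of 0.0129% of genes called for sex. The interaction of genotype and sex was -0.02 (95% interval -0.45 to 0.40, edgeR adjusted p = 1), so a genotype difference of unequal size in the sexes was not detected within that interval. No gene was called for the interaction (0%, with 267 genes at an unadjusted p under 0.05 and 0 called by DESeq2 or limma voom). None of the 9 genes was called for sex or for the interaction. Prph had the largest sex difference of the 9 in size, at 0.37 higher in females (95% interval -0.05 to 0.79, edgeR adjusted p = 0.879), and was chosen here after its value was seen.

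**Figure D2:**
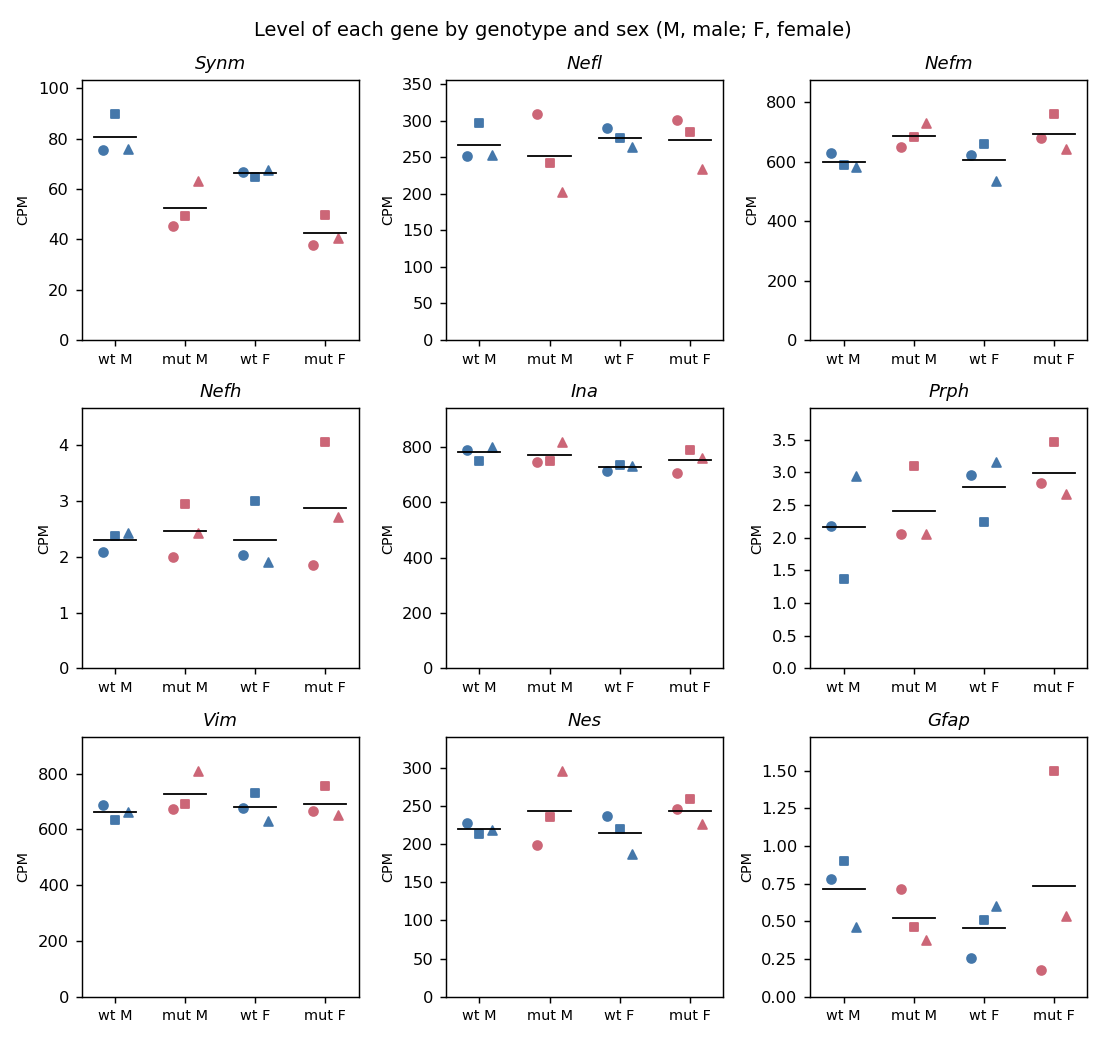
CPM of each of the 9 genes by genotype and sex (wt, wildtype in blue; mut, mutant in red; M, male; F, female), each axis starting at 0; circles, squares and triangles are libraries 4, 5 and 6 and bars are means of 3. Synm is lower in both mutant groups, Nefm is higher in all 3 mutant males than in the wildtype males, and the other 7 genes overlap between genotypes in each sex.

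The promoters of Synm and of Vim, a partner on which synemin assembles, are shown because only the first of these genes was lower in mutants. Both are RefSeq sequences on GRCm38.p6, from 250 bases before to 50 bases after the annotated start, printed 5′ to 3′ on the gene's strand. The Synm window includes the start of Synm used for counting, 67759742. The Vim window instead lies wholly inside the span of Vim used for counting, 13573927 to 13582826. Capitals mark matches on either strand to 3 motifs that share no bases here. The CCAAT box was searched as CCAAT. The TATA box was searched as TATAAA, and the E-box as CACGTG.
Synm, chr7:67759693-67759992, minus strand: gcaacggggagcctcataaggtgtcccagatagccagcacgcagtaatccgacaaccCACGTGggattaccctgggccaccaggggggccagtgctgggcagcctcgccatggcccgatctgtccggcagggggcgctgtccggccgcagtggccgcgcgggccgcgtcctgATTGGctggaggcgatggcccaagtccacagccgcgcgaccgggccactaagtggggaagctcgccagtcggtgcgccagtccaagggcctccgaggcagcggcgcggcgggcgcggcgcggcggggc
Vim, chr2:13574061-13574360, plus strand: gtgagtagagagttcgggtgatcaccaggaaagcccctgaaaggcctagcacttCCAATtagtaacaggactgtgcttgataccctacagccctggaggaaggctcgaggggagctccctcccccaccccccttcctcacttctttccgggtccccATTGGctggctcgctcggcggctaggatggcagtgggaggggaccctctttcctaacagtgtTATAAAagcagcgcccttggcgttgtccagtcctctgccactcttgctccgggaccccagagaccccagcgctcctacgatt
The Synm window held 1 CCAAT, beginning 78 bases before the start, and 1 CACGTG, 193 bases before it. The Vim window held TATAAA 32 bases before the start and CCAAT at 196 and 94 bases before it. Among 32851 promoters of the same length, 37.4% held CCAAT, 13.6% TATAAA and 7.15% CACGTG. The Synm window was 72.7% G or C, above 93.9% of these promoters, and Ina was similar at 71.7%, while Vim had 59.3% and Nes 58.7%. The T-box half-site AGGTGTGA, searched on both strands, was held by 1.28% of all promoters. It had no match in the 6 of 9 members listed in the table (Synm, Ina, Prph, Vim, Nes and Gfap). This says only that these exact letters are not in these windows. The printed Synm window does hold the shorter AGGTGT, a run that was not searched for or counted in other promoters. Nefl, Nefm and Nefh had no entry.

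None of the 8 partners passed the threshold for genotype, over both sexes or in either sex alone. Of the 9 genes, 7 had fitted log2 differences above 0 and 2 below, with a median of 0.12; over all 15467 tested genes 7320 were above and 8139 below, with a median of -0.01. Synm was 1 of the 4 genes called over both sexes (0.0259% of all tested), by which it was chosen, and nothing is read from that. Its call was lost with the replicate block, without the 3 libraries highest in Cryaa, within the 7 libraries low in mt-Nd6 and in 10 of the 12 fits that left out 1 library. It was kept with DESeq2, limma voom, no TMM, no filter, a term for the library set and within the libraries high in mt-Nd6. These fits use the values that chose Synm, so the calls kept are no further evidence. In males no gene was called (0%, with 210 genes at an unadjusted p under 0.05, 6 called by DESeq2 and 0 by limma voom), and in females 0.00669% were (1 gene, Eomes, or 2 with the replicate number as a block). All 9 genes passed the filter on low counts.

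**Figure D3:**
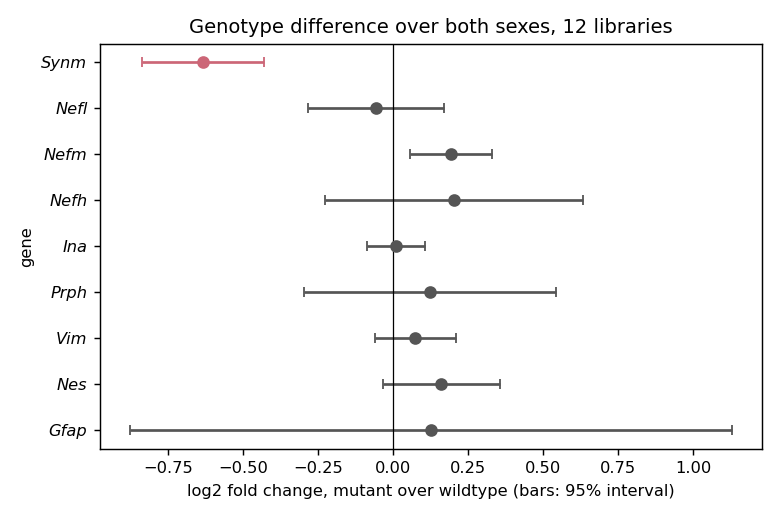
Fitted log2 difference, mutant against wildtype, of the 9 genes over both sexes, with 95% intervals. Synm lies at -0.63, the intervals of Nefl, Nefh, Ina, Prph, Vim, Nes and Gfap include 0, and that of Nefm runs from 0.06 to 0.33 before adjustment over all genes.

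RNA of vimentin and nestin, the filament proteins of progenitors, was not lower in mutants as that of Synm was. Vim (mm10 chromosome 2, 13573927 to 13582826) was at 687, 633 and 663 CPM in wildtype males 4, 5 and 6, at 673, 692 and 811 CPM in mutant males, at 677, 731 and 629 CPM in wildtype females and at 666, 754 and 652 CPM in mutant females. The genotypes overlapped in both sexes, and mutant male 6 was the highest library. Its log2 difference was 0.07 (95% interval -0.06 to 0.21, edgeR adjusted p = 0.918), an interval wholly above the value of Synm. Nes (mm10 chromosome 3, 87971078 to 87980451) was at 227, 213 and 218 CPM in wildtype males, 199, 235 and 296 CPM in mutant males, 237, 219 and 187 CPM in wildtype females and 246, 259 and 226 CPM in mutant females. Mutant male 6 was again the highest, and the genotypes overlapped. The log2 difference of Nes was 0.16 (95% interval -0.03 to 0.36, edgeR adjusted p = 0.918). Without mutant male 6 the log2 differences were 0.03 for Vim and 0.09 for Nes. That library also had the highest sum of progenitor markers, 7764 CPM, beside 6795 to 7195 CPM in wildtype. It had the fewest genes with a count as well, 16903. The part of these in the values was not tested.

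The ratio of Synm to its partners was lower in mutants. Per 1000 FPKM of Vim there were 24.8 to 39.6 FPKM of Synm in wildtype and 15.8 to 21.8 FPKM in mutant libraries. Per 1000 FPKM of Nes the ranges were 219 to 328 FPKM and 119 to 177 FPKM. Per 1000 FPKM of Ina they were 36.4 to 49.4 FPKM and 21.9 to 31.9 FPKM. With the M21 lengths the values per 1000 FPKM of Vim were 53.1 to 84.9 FPKM and 33.8 to 46.7 FPKM. The genotypes do not overlap in any of these ratios, but each carries the value that chose Synm and is no further evidence.

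Among the genes of axonal proteins, that of alpha-internexin was the steadiest in RNA. Ina (mm10 chromosome 19, 47014698 to 47025327) was at 791, 750 and 802 CPM in wildtype males 4, 5 and 6, at 746, 748 and 818 CPM in mutant males, at 715, 735 and 730 CPM in wildtype females and at 707, 788 and 760 CPM in mutant females. The genotypes overlapped, with a log2 difference of 0.01 (SE 0.04, 95% interval -0.09 to 0.11, edgeR adjusted p = 0.968). This was the narrowest interval of the 9 genes. In GENCODE M21 456 exon bases of Ina are shared with Nt5c2 on the opposite strand, and the strand setting of the counting is not given in the sources used here.

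Nefl, the light subunit that the other neurofilament proteins need for assembly, was at 252, 297 and 253 CPM in wildtype males 4, 5 and 6 and at 310, 243 and 202 CPM in mutant males. Wildtype females were at 290, 277 and 265 CPM and mutant females at 301, 285 and 234 CPM. The genotypes overlapped, and the mutant libraries were the more spread, at 263 ± 42.7 CPM beside 272 ± 19.0 CPM in wildtype (SD, n = 6 each). The log2 difference was -0.06 (95% interval -0.28 to 0.17, edgeR adjusted p = 0.932), and it was 0.01 without mutant male 6, the lowest library. Nefl ran from 265 to 310 CPM in the libraries high in mt-Nd6 and from 202 to 285 CPM in the others.

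Nefm, the medium subunit, was at 630, 588 and 582 CPM in wildtype males 4, 5 and 6 and at 650, 685 and 729 CPM in mutant males. Wildtype females were at 622, 661 and 534 CPM and mutant females at 680, 762 and 642 CPM. The males did not overlap, which held for 2.47% of all tested genes in this direction, and the females did, through wildtype female 5. Means were 603 ± 44.4 CPM in wildtype and 691 ± 46.3 CPM in mutant libraries (SD, n = 6 each). The log2 difference of 0.19 (SE 0.06, 95% interval 0.06 to 0.33) had an unadjusted p of 0.00896 and did not pass adjustment over all genes (edgeR adjusted p = 0.918). An unadjusted p under 0.05 was reached by 451 of the 15467 genes tested, among them 2 of the 9, Nefm and Synm.

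Nefm and Nefl overlap on the chromosome, and whether their counts are separate depends on the strand setting, which is not known here. In mm10 Nefm spans 68082590 to 68124846 on the minus strand of chromosome 14 and contains Nefl, 68083863 to 68089095 on the plus strand; 1108 exon bases are shared in GENCODE M21. The ratio of Nefm to Nefl FPKM was 2.04 ± 0.192 in wildtype and 2.48 ± 0.487 in mutant libraries (SD, n = 6 each). With the M21 lengths the ratio was 1.30 ± 0.122 and 1.58 ± 0.310 (SD, n = 6 each), which leaves the log2 difference as it is. That difference of 0.26 had a p of 0.065 in a two-sided exact permutation test within sex (400 permutations, smallest possible p 0.005) and 0.195 after Benjamini-Hochberg adjustment over 3 ratios. The ratio also differed between the library sets, being 1.82 to 2.08 in the 5 libraries high in mt-Nd6 and 2.11 to 3.32 in the other 7. In a split added after seeing the data, the log2 difference between genotypes within the first set was 0.10 (exact permutation p = 0.333) and within the second 0.30 (exact permutation p = 0.0556). These sets allow 6 and 18 permutations, so neither can go below a p of 0.05 (smallest 0.167 and 0.0556). With 1 library left out the difference ran from 0.17 without mutant male 6 (exact permutation p = 0.155) to 0.37 without mutant male 4 (exact permutation p = 0.015). Without mutant female 4 it was 0.31 (exact permutation p = 0.045), and the exact permutation p of the other 9 ran from 0.055 to 0.18.

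**Figure D4:**
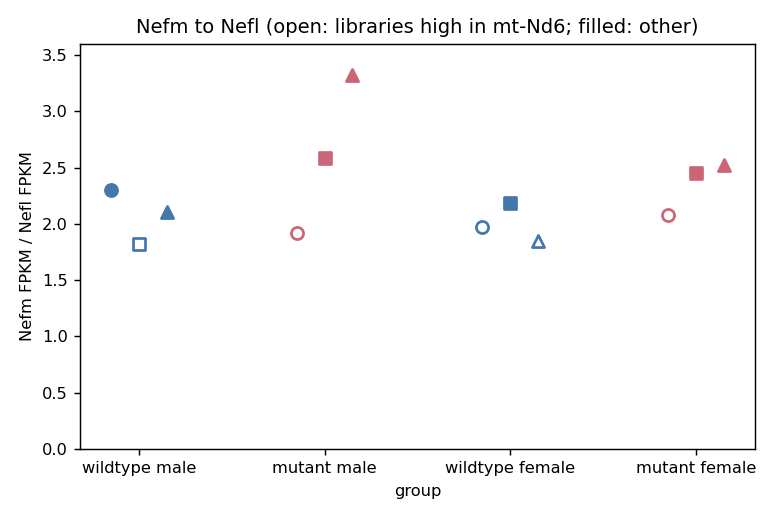
Ratio of Nefm to Nefl FPKM in each library by genotype and sex; circles, squares and triangles are libraries 4, 5 and 6, and open symbols are the 5 libraries high in mt-Nd6. The open symbols lie at 1.82 to 2.08 and the filled ones at 2.11 to 3.32, with mutant male 6 the highest.

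The other ratios showed less. Ina to Nefl was 2.91 ± 0.319 in wildtype and 3.11 ± 0.660 in mutant libraries, a log2 difference of 0.08 (exact permutation p = 0.575, also after adjustment). That difference was -0.11 among the libraries high in mt-Nd6, 0.17 among the other 7 and -0.02 without mutant male 6. Nes to Vim, the genes of the 2 progenitor proteins, was 0.116 ± 0.00750 and 0.123 ± 0.00953 (SD, n = 6 each), a log2 difference of 0.08 (exact permutation p = 0.21, adjusted 0.315). With 1 library left out the Nes to Vim difference ran from 0.0482 without mutant male 6 (exact permutation p = 0.465) to 0.13 without mutant male 4 (exact permutation p = 0.03). The difference was 0.0031 in the mt-Nd6-rich set (exact permutation p = 1) and 0.15 among the other 7 (exact permutation p = 0.0556). With the M21 lengths the ratio was 0.239 ± 0.0155 and 0.254 ± 0.0197 (SD, n = 6 each), with the same log2 difference.

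Nefh, Prph and Gfap were near the limit of counting. Nefh (mm10 chromosome 11, 4938754 to 4948064), the heavy subunit of mature axons, had 38 to 95 counts per library. It was at 2.08, 2.38 and 2.43 CPM in wildtype males, 2.0, 2.95 and 2.43 CPM in mutant males, 2.03, 3.0 and 1.90 CPM in wildtype females and 1.86, 4.06 and 2.72 CPM in mutant females. The genotypes overlapped and the log2 difference was 0.20 (95% interval -0.23 to 0.63, edgeR adjusted p = 0.918). Prph (mm10 chromosome 15, 99055174 to 99058978) had 35 to 81 counts and averaged 2.47 ± 0.673 CPM in wildtype and 2.70 ± 0.567 CPM in mutant libraries (SD, n = 6 each), a log2 difference of 0.12 (95% interval -0.30 to 0.54, edgeR adjusted p = 0.925). Gfap (mm10 chromosome 11, 102887336 to 102900912) had 4 to 35 counts and its log2 difference was 0.13 (95% interval -0.88 to 1.13, edgeR adjusted p = 0.962), an interval that includes the value of Synm. Mutant female 5 was the highest library for Gfap (1.5 CPM), Nefh (4.06 CPM) and Prph (3.46 CPM), and also had the highest sums of lens markers (2142 CPM) and of astrocyte and optic nerve markers (30.1 CPM, beside 14.9 to 24 CPM in wildtype); the part of these in the 3 genes was not tested. Without that library the log2 difference of Gfap was -0.41 and that of Nefh 0.04.

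No gene was called in any of 5 lists of the wider filament machinery, beside 0.0259% called over all genes, so a count of 0 in lists of this size says little. Counts of higher and lower members stand beside 7320 and 8139 over all genes. Other intermediate filament genes, the keratins, lamins, desmin and lens filament proteins, had 11 of 17 listed members tested, 7 higher and 4 lower with a median of 0.04. Desmin (Des), a filament protein of muscle with which synemin assembles, was at -0.47 (SE 0.34) on 5 to 29 counts per library. Its means were 0.892 CPM in wildtype and 0.407 CPM in mutant males, and 0.722 and 0.786 CPM in the females. Krt10 was at -0.20 (SE 0.12), and neither gene was past the threshold. Linkers that join filaments to other cytoskeleton had a median of 0.08 over 5 tested, with plectin (Plec) at 0.09. Binding partners of synemin and subunits of protein kinase A had a median of 0.06 over 12, with the catalytic subunit Prkaca at 0.09 and the regulatory subunit Prkar2a at 0.10. The 21 genes of filament transport, phosphorylation and turnover were 10 higher and 11 lower, with Gsk3a, a kinase that phosphorylates neurofilaments, at 0.13. Chaperones of filaments had a median of 0.22 over 5, with Bag3 at 0.22 and Dnajb6 at -0.11. Dnajb6 was at 82.3 CPM in mutant male 6 and at 122 to 139 CPM in the other libraries. The edgeR adjusted p of each of these named genes was 0.918, and the linker Evpl, at 0.19, had the same.

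None of the genes beside Synm on chromosome 7 was called. Mef2a was at -0.01 (SE 0.13), Lrrc28 at 0.08 (SE 0.07), Ttc23 at -0.05 (SE 0.10) and Igf1r, the receptor of insulin-like growth factor 1, at 0.11 (SE 0.10), as log2 differences. The nearest genes after Synm that were too low to test, 4833412C05Rik and Pgpep1l, had at most 6 and 2 counts in a library. In GENCODE M21 Synm shares 84 exon bases with Ttc23 and 426 with Gm45102, both on the opposite strand, whereas in the deposited table Ttc23 ends at 67726576, before Synm. Around the Nefm and Nefl pair, Kctd9 was at -0.19, Gnrh1 at -0.21, Dock5 at 0.07, Adam7 at -0.19 and Stc1 at -0.20, none called, and Rps2-ps5 had at most 5 counts.

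The genes with levels nearest to those of Synm are given as a description, since the measure uses the Synm values that chose it and so favours genes lower in mutants. Likeness was the root mean square difference of log2 CPM over the 12 libraries after subtracting each gene's own mean. It was ranked over 12437 protein-coding genes with a mean of at least 1 CPM, leaving out predicted and clone-named genes. None of the 5 nearest passed the threshold for genotype in the main fit (edgeR adjusted p from 0.264 for Sparcl1 to 0.918 for March3 and Irx6). Of the 5, DESeq2 called only Sparcl1 over both sexes, among its 15 genes. Clstn2, a synaptic adhesion protein, was nearest at 0.19, with 13.6 ± 2.43 CPM in wildtype and 9.93 ± 1.60 CPM in mutant libraries (SD, n = 6 each). Sparcl1, a secreted matrix protein, followed at 0.20, with 15.6 ± 2.78 and 10.9 ± 0.747 CPM (SD, n = 6 each). Mast4 was next at 0.22, with 53.4 and 41.8 CPM, then March3 at 0.22, with 2.35 and 1.69 CPM, and the homeobox gene Irx6 at 0.23, with a log2 difference of -0.31. March3 is listed in the deposited table under a symbol turned into a date and was named by its gene identifier. Of the 8 partners Ina was the nearest, at rank 1190 with a difference of 0.36. Gfap was the farthest and would stand at rank 12052, though its own mean was below that limit of 1 CPM. The measure is also small for a gene that barely varies.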

How the data were processed

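The series holds 12 RNA-seq libraries of pooled retinas. Base calls came from CASAVA, alignments to mm10 from STAR 2.5, gene counts from HTSeq 0.6.1 and the authors' comparisons from DESeq2, per the submitters' processing notes. No annotation release or strand setting is given in the sources used here. The deposited raw counts per gene are whole numbers, per the file headers. The deposited FPKM values are counts scaled by listed gene length and library total. The deposited log2 fold changes, p-values and adjusted p-values are those of the authors, and only log2 values of Synm and Eomes were copied.

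From the counts, edgeR 4.0.16 in R 4.3.3 was run on all genes: TMM scaling, filterByExpr, two-sided quasi-likelihood test, Benjamini-Hochberg adjustment over all genes tested and a threshold of 0.05. Both sexes were fitted with genotype and sex as terms; males, females and the interaction were fitted too. The scripts were tested on simulated data. Ratios of FPKM were tested by exact permutation within sex. CPM are counts per 1000000 of the library total. DESeq2 1.42.0, limma 3.58.1 (voom), no TMM, no filter, a replicate block, leaving out each library, a term for the mt-Nd6 library set, fits within each set and leaving out the 3 libraries highest in Cryaa were alternatives. In females every same-numbered pair deviated together (correlations of 0.296, 0.345 and 0.21 from the data, not the labels), so block values are given there. Differently numbered female pairs ran from -0.504 to 0.275. The highest of these, wildtype 6 with mutant 4, was above the 0.21 of the pair numbered 6. The correlations thus do not single out a pairing by number. No 2 libraries of a group agreed within sampling noise.

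Named are Eomes, the 9 members, the 2 genes of smallest p in each pathway list without a called gene, the 5 genes nearest to Synm and the 3 listed genes on each side of Synm and of the Nefm and Nefl pair; 1 gene that this rule names is not reported here. The members and lists were chosen with earlier results of these data known. Marker lists were also summed for horizontal cells (129 to 251 CPM over all libraries), vessels and mesenchyme (272 to 316), muscle (1.64 to 4.13), surface ectoderm (5.67 to 12.3), pigment epithelium (19.4 to 35.4), microglia (42.0 to 60.9) and blood (244 to 625).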

Additional observations from a re-analysis of the deposited data

How the results depend on the processing

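Genes called for genotype over both sexes numbered 4, and 15 with DESeq2, 9 with a term for the library set and 0 without the 3 libraries highest in Cryaa, where fewer samples entered. Leaving out 1 library gave 1 to 5: 1 on dropping number 5 or 6 of the wildtype males, 4 of the wildtype females, 5 of the mutant males or 6 of the mutant females, and 2 on dropping number 4 of either male group or 5 of the wildtype females. Synm was past the threshold in 2 of those 12 fits, those without mutant male 6 and without mutant female 5. For sex, the count of 2 became 1 without the 3 libraries highest in Cryaa. DESeq2 called 6 genes in males, where edgeR called 0, and 10 in females, where edgeR called 1; leaving out 1 library in females gave 0 to 2. With replicate number as a block, taken within each sex, 1 gene was called over both sexes and 2 in females. Libraries of the same number deviated together in females. In males they did not in every case (correlations -0.314, 0.031 and 0.439), and wildtype male 5 with mutant male 4 reached 0.568. Each block of the fit over both sexes joined the wildtype and the mutant library of the same sex and number. The correlations do not single out these pairs. In that fit the block ended the call of Synm, whose log2 difference was -0.64. The cause of these changes was not tested.

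Signs changed for the low genes Gfap, Nefh and Prph, and also for Nefl and Ina, which had far more counts. Gfap was at -0.0502 with limma voom, -0.0357 with the replicate block, -0.24 without the 3 libraries and -0.69 among libraries high in mt-Nd6, and -0.41 to 0.30 with 1 library left out. Nefh was at -0.0124 and -0.15 without those 3 libraries and within that set, and Prph at -0.14 without those 3. Within it Nefl was at 0.0942 and Ina at -0.0192. With 1 library left out Nefl ran from -0.13 to 0.0072, Ina from -0.009 to 0.0281, the interaction of Synm from -0.14 to 0.13, and Synm from -0.70 to -0.59. The log2 ratio of Nefm to Nefl ran from 0.17 to 0.37, of Ina to Nefl from -0.0163 to 0.17 (-0.11 within the set high in mt-Nd6) and of Nes to Vim from 0.0482 to 0.13. None of the 8 partners was called for genotype over both sexes under any alternative run, the lowest adjusted p being 0.422. Nefh, Prph and Gfap rest on under 100 counts a library, and how counting error and the spread between pools share in their wide intervals was not tested.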
